A study of Mus musculus with 8 samples.

Results

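The genes described here are 10 inhibitory checkpoint genes of T cells and their partners: the receptors Pdcd1 (PD-1), Ctla4, Lag3, Havcr2 (TIM-3) and Tigit, the PD-1 ligands Cd274 (PD-L1) and Pdcd1lg2 (PD-L2), the TIM-3 ligand Lgals9 (galectin-9), and Entpd1 (CD39) and Nt5e (CD73), which make adenosine. They were found by the gene name that the array annotation gives to its probes. This gave 14 of the 56567 mouse probes kept, with at least 1 probe for each of the 10 genes. Of the 14 probes, 12 covering all 10 genes passed the filter on dim signal, among 21616 gene names tested. CT26, a colon carcinoma line of BALB/c mice, was implanted under the skin of female BALB/c mice aged 6 to 10 weeks at 500000 cells a mouse. Mice of all 4 groups carried these tumors and were treated for 2 weeks. They received vehicle, TP-16 (named BY001 in the labels, an antagonist of the prostaglandin E2 receptor EP4) orally each day at 75 mg/kg, anti-PD-1 antibody intraperitoneally at 50 µg a dose with 2 doses a week, or both agents. These doses follow the labels, and the array paragraph of the study's methods gives them the other way round. Total RNA of whole tumors was labelled with 1 dye and read on 8 Agilent arrays, 2 for each group. The study's methods name an isotype control antibody but not the groups that received it. The sources used here do not say whether a sample was 1 tumor or a pool, so p-values measure the spread between these samples, which may be technical.

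Inhibitory checkpoints restrain T cells that have already been activated. PD-1 is induced on activated T cells and, once bound by PD-L1 or PD-L2 on myeloid or tumor cells, recruits phosphatases that dampen signaling from the T-cell receptor. CTLA-4 competes for the costimulatory ligands CD80 and CD86, LAG-3 binds MHC class II among other ligands, TIM-3 binds galectin-9, and TIGIT binds CD155. CD39 and CD73 act in sequence on extracellular ATP, and the adenosine they form suppresses T cells through its own receptors. PD-L1 and PD-L2 are known targets of interferon gamma, and several of these receptors are used as signs of T cells that have met antigen for a long time.

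The promoters of both PD-1 ligand genes, which neighbour each other on chromosome 19, are shown because both ligands are followed through all comparisons below, and that of Lgals9 because it held the only match to an interferon response motif. Promoter sequences were taken from RefSeq for the GRCm38.p6 build and cover the 250 bases before the start of transcription, on the strand of the gene. Capitals mark a match to the core of the interferon-stimulated response element.
Cd274, chr19:29367188-29367437, + strand: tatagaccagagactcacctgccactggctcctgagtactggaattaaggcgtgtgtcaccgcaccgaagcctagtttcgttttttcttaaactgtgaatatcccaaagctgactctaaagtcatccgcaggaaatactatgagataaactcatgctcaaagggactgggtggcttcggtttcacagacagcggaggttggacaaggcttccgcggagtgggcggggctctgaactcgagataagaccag
Pdcd1lg2, chr19:29410669-29410918, + strand: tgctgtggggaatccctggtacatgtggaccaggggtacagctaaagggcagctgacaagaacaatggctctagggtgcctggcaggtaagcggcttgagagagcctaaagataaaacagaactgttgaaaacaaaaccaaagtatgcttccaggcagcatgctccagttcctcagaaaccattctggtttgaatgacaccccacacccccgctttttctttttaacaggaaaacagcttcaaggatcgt
Lgals9, chr11:78984925-78985174, - strand: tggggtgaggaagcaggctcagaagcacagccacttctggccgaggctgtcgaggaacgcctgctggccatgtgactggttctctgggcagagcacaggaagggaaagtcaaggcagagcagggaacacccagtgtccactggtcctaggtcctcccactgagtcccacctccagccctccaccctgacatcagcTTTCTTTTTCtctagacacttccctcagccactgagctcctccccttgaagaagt

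Windows of this kind were at hand for 9 of the 10 genes, with 2 windows for Entpd1, and not for Lag3. They were searched on both strands for 4 motifs. The response element core, GAAA followed by any 2 bases and GAAA again, was in the Lgals9 window on the reverse strand, 46 to 55 bases before the start, and in 2.97% of 32817 promoter windows of the genome. The gamma-activated site TTCNNNGAA was in none of the 9 genes and in 7.01% of all windows. The cAMP response element TGACGTCA was in none of the 9 genes and in 1.55% of all windows, while its part TGACG was in both windows of Entpd1 and in 17.7% of all windows. A match describes letters in a window of this length and no more.

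Every value below is the log2 intensity of a probe minus the 75th percentile of its array, so a difference of 1 is a 2-fold change. Levels of different probes are not comparable on this scale. A gene was called where its fold change was at least 2 and its adjusted p-value in limma was at most 0.05. Adjustment was by Benjamini-Hochberg over all 31912 probes tested. A weaker count used the unadjusted limma p-value at the same threshold. The study's methods set the same fold and unadjusted p-value limits, but with Student's t-test in place of limma. A gene with several probes is represented by the tested probe with the highest mean. Between 51.4% (anti-PD-1 replicate 1) and 59.7% (vehicle replicate 2) of the probes kept were well above background on an array. The vehicle replicates lay furthest apart, with an SD of the difference between replicates of 0.68 over all probes tested, against 0.42 to 0.53 in the other groups. Arrays with and without the antibody lay in different rows of the slide and arrays with and without TP-16 in different columns, so position and treatment cannot be told apart. Precision was limited by the 2 arrays in each group.

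In tumors given both agents, 6 of the 10 genes rose against vehicle. These were Pdcd1, Cd274, Pdcd1lg2, Lag3, Havcr2 and Entpd1, by 2.99-fold (Havcr2) to 6.33-fold (Pdcd1lg2) where all arrays were above background, and none fell. The fitted fold of Lag3, 9.34, rests on a vehicle array that was not well above background. The share of all genes called higher in this comparison was 5.57%, and 8.61% were called lower. The same 6 genes passed at the unadjusted p-value, at which 6.63% of all genes were higher. In RNA of whole tumors, a change in the number of cells of a type and a change in the RNA of each cell cannot be told apart. Tigit and Lgals9 passed the adjusted p-value but not the 2-fold limit, Ctla4 passed neither, and Nt5e differed least. The median log2 fold change was 1.88 over the 10 genes and -0.24 over all genes tested. Of the 10 genes, 8 had both combination arrays above both vehicle arrays, as did 23.1% of all genes, and 7 had both combination arrays above all 6 other arrays, as did 13.6% of all genes. The 6 calls shrank to Cd274, Pdcd1lg2 and Entpd1 without TP-16 replicate 1 or 2, anti-PD-1 replicate 1 or 2, or combination replicate 1, and to 0 without combination replicate 2. There were 5 calls without vehicle replicate 1, 7 without vehicle replicate 2, 3 with no filter on dim probes, and 0 both when only the combination and vehicle groups were fitted and by the methods' t-test after adjustment.

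**Figure D1:**
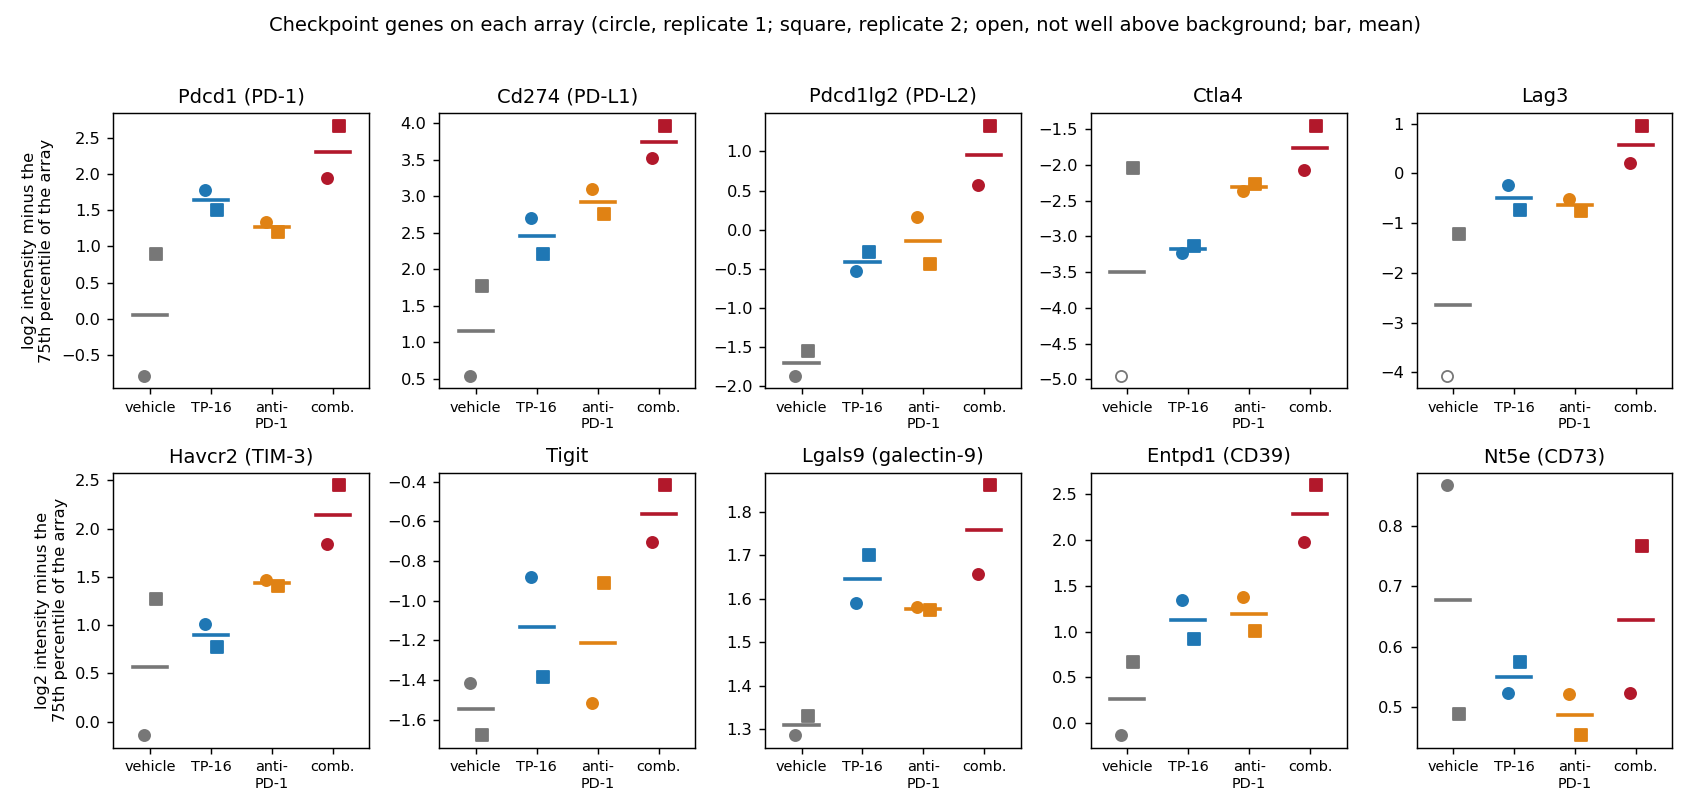
Each panel plots 1 gene, with the log2 intensity relative to the 75th percentile of the array on the vertical axis and the 4 groups on the horizontal axis; points are arrays, bars are means of 2 arrays, and open points were not well above background. Both combination arrays lie above all 6 other arrays for 7 genes, and the vehicle arrays lie far apart for Pdcd1, Cd274, Ctla4, Lag3 and Havcr2.

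Pdcd1 encodes the receptor that the antibody binds, and its probe lies at chr1:95935064-95935123 on the - strand in the mm9 build of the array annotation, as do all probe positions below. Its values were -0.79 and 0.90 in the vehicle arrays, 1.77 and 1.5 with TP-16, 1.33 and 1.20 with anti-PD-1, and 1.94 and 2.67 with the combination. No vehicle array reached any treated array, and both combination arrays stood highest. Against vehicle the combination was higher by 2.25 ± 0.55 on the log2 scale (SE, 2 arrays a group, adjusted p = 0.0299), a 4.75-fold rise. The rise was 1.41 without vehicle replicate 1 and 3.09 without vehicle replicate 2. TP-16 alone was higher than vehicle by 1.58 ± 0.55, which passed only the unadjusted p-value (adjusted p = 0.154), and anti-PD-1 alone by 1.21 ± 0.55 (adjusted p = 0.379). Without vehicle replicate 1 these were 0.74 and 0.37.

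The PD-1 ligands stood in the same order in all groups, with vehicle lowest, TP-16 next, anti-PD-1 above it and the combination highest. Cd274, which encodes PD-L1 (chr19:29462363-29462422, + strand), measured 0.54 and 1.77 in vehicle, 2.70 and 2.21 with TP-16, 3.10 and 2.75 with anti-PD-1, and 3.52 and 3.97 with the combination. The anti-PD-1 arrays lay above both TP-16 arrays and below both combination arrays, with no overlap between neighbouring groups. PD-L1 transcript rose with the combination by 2.59 ± 0.43 on the log2 scale (6.03-fold, adjusted p = 0.0123), and by 1.98 without vehicle replicate 1. The single agents were higher than vehicle by 1.30 ± 0.43 for TP-16 (adjusted p = 0.141) and 1.77 ± 0.43 for anti-PD-1 (adjusted p = 0.247), both past the unadjusted p-value only. Without vehicle replicate 1 they were 0.69 and 1.16.

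Pdcd1lg2, which encodes PD-L2 (chr19:29545473-29545532, + strand), measured -1.87 and -1.56 in vehicle, -0.53 and -0.29 with TP-16, 0.16 and -0.44 with anti-PD-1, and 0.57 and 1.33 with the combination. Its vehicle arrays were close together and below every treated array, its single-agent groups overlapped, and its combination arrays were highest. It had the smallest adjusted p-value of the 10 genes by the probe used for each, with a rise of 2.66 ± 0.32 on the log2 scale (6.33-fold, adjusted p = 0.0102). No array left out moved this difference outside 2.28 to 3.04. For TP-16 alone the difference was 1.30 ± 0.32 (adjusted p = 0.0967), and for anti-PD-1 alone 1.57 ± 0.32 (adjusted p = 0.234).

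Lag3 encodes a receptor of activated T cells that binds MHC class II, and it had the largest fitted rise of the 10 genes, an order that did not hold without vehicle replicate 1. Its brighter probe (chr6:124854570-124854866, - strand) measured -4.07 and -1.22 in vehicle, -0.24 and -0.73 with TP-16, -0.51 and -0.75 with anti-PD-1, and 0.20 and 0.96 with the combination. Vehicle replicate 1 was not well above background, both single-agent groups overlapped, and both combination arrays were highest. The rise with the combination was 3.22 ± 0.88 on the log2 scale (9.34-fold, adjusted p = 0.0397), and 1.80 without vehicle replicate 1, less than the rises of Cd274 and Pdcd1lg2 without that array. The single agents differed from vehicle by 2.15 ± 0.88 for TP-16 (adjusted p = 0.195) and 2.02 ± 0.88 for anti-PD-1 (adjusted p = 0.366). Leaving out vehicle replicate 1, the array below background, gave 0.73 and 0.59.

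A dimmer Lag3 probe (chr6:124859333-124859392, - strand) measured -6.32 and -6.09 in vehicle, where it was not well above background on either array. It was above background on all 6 treated arrays, at -2.84 and -3.59 with TP-16, -3.21 and -3.60 with anti-PD-1, and -2.46 and -1.57 with the combination. Against the lowest signal above background on the vehicle arrays, it was at least 3.82-fold higher with the combination (adjusted p = 0.0102 in limma), at least 1.66-fold with TP-16 (adjusted p = 0.0590) and at least 1.45-fold with anti-PD-1 (adjusted p = 0.163). Both probes gave the same order of groups.

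Ctla4 encodes the receptor that competes with CD28 for its ligands (chr1:60971801-60971860, + strand). It measured -4.95 and -2.05 in vehicle, -3.23 and -3.13 with TP-16, -2.37 and -2.26 with anti-PD-1, and -2.07 and -1.45 with the combination. Vehicle replicate 1 was not well above background, and vehicle replicate 2 lay above every single-agent array and above 1 combination array. The difference of the combination from vehicle was 1.74 ± 0.87 on the log2 scale (adjusted p = 0.173), with a 95% interval of -0.41 to 3.89. It was 0.29 without vehicle replicate 1. Without vehicle replicate 2 it was called (adjusted p = 0.0118), but against the array below background alone. TP-16 alone differed from vehicle by 0.32 (adjusted p = 0.839) and anti-PD-1 alone by 1.19 (adjusted p = 0.539). Both differences turned negative without vehicle replicate 1, to -1.13 and -0.27, and that of TP-16 with normexp background correction as well (-0.27).

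Havcr2 encodes TIM-3, which T cells and myeloid cells carry (chr11:46294650-46294709, + strand). It measured -0.14 and 1.27 in vehicle, 1.01 and 0.78 with TP-16, 1.47 and 1.41 with anti-PD-1, and 1.84 and 2.45 with the combination. The TP-16 arrays lay between the vehicle arrays, the anti-PD-1 arrays just above them, and the combination arrays above all others. The rise with the combination was 1.58 ± 0.46 on the log2 scale (2.99-fold, adjusted p = 0.0477), nearest to the limit of the 6 calls. It was 0.87, under the 2-fold limit, without vehicle replicate 1. It lost the call with quantile normalization as well (adjusted p = 0.0588), and with a term for the replicate number in the fit. Its ligand galectin-9, encoded by Lgals9 (chr11:78776922-78776981, - strand), moved over a narrow range, with 1.29 and 1.33 in vehicle, 1.59 and 1.70 with TP-16, 1.58 and 1.57 with anti-PD-1, and 1.66 and 1.86 with the combination. All 6 treated arrays exceeded both vehicle arrays, but the difference for the combination was 0.45 ± 0.12 on the log2 scale, a 1.37-fold difference (adjusted p = 0.0339).

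Tigit encodes a receptor that T cells and NK cells share (chr16:43649114-43649173, - strand). It measured -1.42 and -1.68 in vehicle, -0.88 and -1.38 with TP-16, -1.52 and -0.91 with anti-PD-1, and -0.70 and -0.42 with the combination. The TP-16 arrays lay just above the vehicle arrays, 1 anti-PD-1 array lay between the vehicle arrays and the other above them, and the combination arrays were highest. The difference of the combination from vehicle was 0.99 ± 0.27 on the log2 scale (1.98-fold, adjusted p = 0.0408), just under the 2-fold limit. With quantile normalization it was 1.07 and called (adjusted p = 0.0433). TP-16 alone gave a difference of 0.42 (adjusted p = 0.372) and anti-PD-1 alone one of 0.33 (adjusted p = 0.577).

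Entpd1 encodes CD39, which removes phosphates from ATP and ADP. Its brighter probe (chr19:40814006-40814065, + strand) measured -0.13 and 0.66 in vehicle, 1.34 and 0.92 with TP-16, 1.38 and 1.01 with anti-PD-1, and 1.98 and 2.60 with the combination. Vehicle was lowest, the single agents overlapped each other in the middle, and the combination was highest. The rise with the combination was 2.03 ± 0.35 on the log2 scale (4.07-fold, adjusted p = 0.0133), and 1.63 without vehicle replicate 1. A further probe of the gene (chr19:40813463-40813522, + strand) rose by 1.95 ± 0.38 (adjusted p = 0.0166), and another at chr19:40735229-40735288 was not well above background on any array and was not tested.

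Nt5e encodes CD73, which forms adenosine in the step after CD39 (chr9:88266616-88266675, + strand). It measured 0.87 and 0.49 in vehicle, 0.52 and 0.57 with TP-16, 0.52 and 0.45 with anti-PD-1, and 0.52 and 0.77 with the combination. All groups overlapped with vehicle, so CD73 transcript did not follow CD39 transcript. The difference of the combination from vehicle was -0.03 ± 0.16 on the log2 scale (adjusted p = 0.888), and its 95% interval of -0.44 to 0.37 lay below a 2-fold change in either direction. The sign of so small a difference turned with normexp background correction (0.011) and without vehicle replicate 1 (0.16). A second Nt5e probe (chr9:88225916-88225975) was above background on vehicle replicate 2 alone and was not tested.

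Against vehicle, no gene of the 10 was called with either single agent after adjustment, where 0.00463% of all genes were called higher with TP-16 and 0.0278% with anti-PD-1. At the unadjusted p-value, Pdcd1, Cd274 and Pdcd1lg2 were higher with TP-16, 3 of 10 against 1.55% of all genes, and Cd274 and Pdcd1lg2 with anti-PD-1, 2 of 10 against 1.89% of all genes. Their median log2 fold change was 0.64 with TP-16 and 1.06 with anti-PD-1, where the medians of all genes were -0.15 and -0.10. Both arrays of the treated group exceeded both vehicle arrays for 7 genes with TP-16 and for 7 with anti-PD-1, and for 16.5% and 15.6% of all genes. These counts turned on the vehicle arrays: without vehicle replicate 2, 7 genes passed the unadjusted p-value with each agent, and 1 was called after adjustment with TP-16 (Lag3, adjusted p = 0.0353) and 2 with anti-PD-1 (Lag3, adjusted p = 0.0399, and Ctla4, adjusted p = 0.0349). Both genes were not well above background on the vehicle array that this leaves, so these calls rest on a value below background. Without TP-16 replicate 1, 1 gene passed the unadjusted p-value for TP-16. All 3 comparisons with vehicle share the same vehicle arrays, so they are given side by side and not set against each other.

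**Figure D2:**
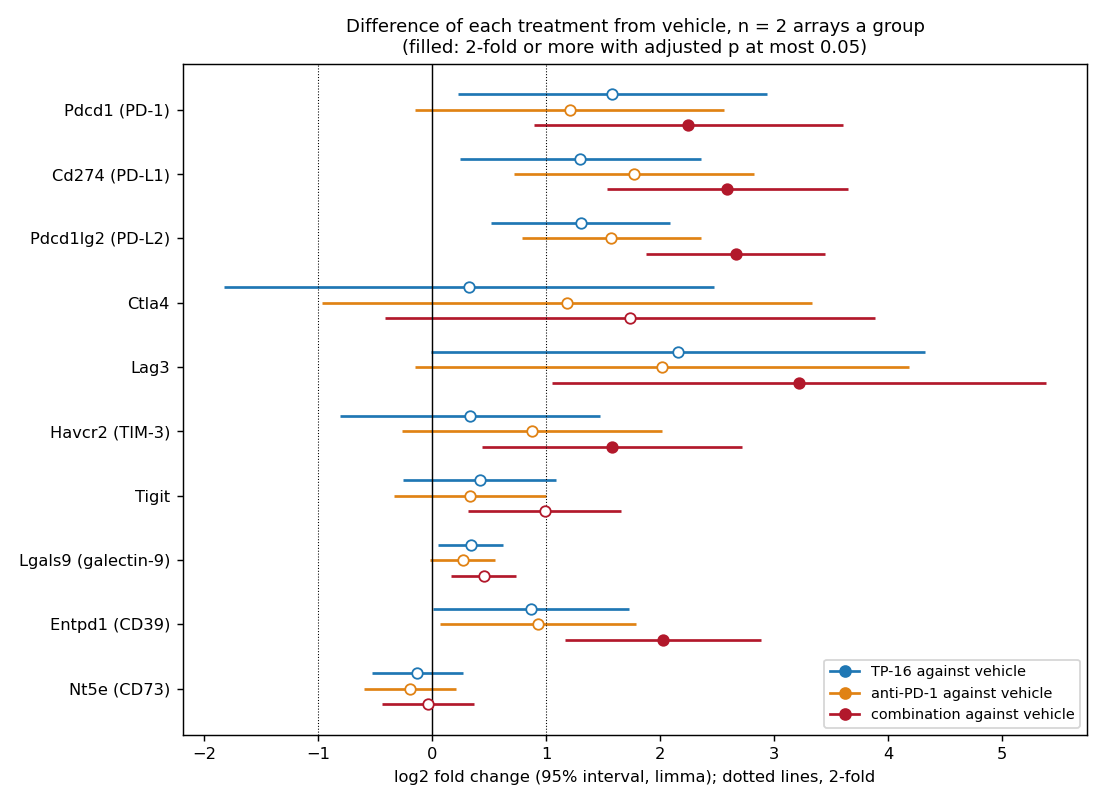
Points are log2 fold changes of each treatment from vehicle and lines their 95% intervals from limma (2 arrays a group); filled points were called at 2-fold with an adjusted p-value of at most 0.05. The 6 filled points all belong to the combination, and the intervals of Nt5e lie within a 2-fold change in all 3 comparisons.

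Whether both agents together gave more checkpoint transcript than either alone was tested directly. No gene of the 10 passed the adjusted p-value in the combination against TP-16 or against anti-PD-1, and in both comparisons 0% of all genes were called higher. At the unadjusted p-value the combination exceeded TP-16 in Cd274 (1.29 ± 0.43 on the log2 scale), Pdcd1lg2 (1.36 ± 0.32), Havcr2 (1.25 ± 0.46) and Entpd1 (1.16 ± 0.35), 4 of 10 genes against 3.98% of all genes, with adjusted p-values of 0.134 to 0.198. It exceeded anti-PD-1 in Pdcd1lg2 (1.09 ± 0.32) and Entpd1 (1.1 ± 0.35), 2 of 10 genes against 2.38% of all genes, with adjusted p-values of 0.115 and 0.131. The dimmer Lag3 probe, not used for these counts, also passed the unadjusted p-value in limma, unlike the brighter probe. It did so against TP-16 (1.20 ± 0.38, adjusted p = 0.162) and against anti-PD-1 (1.39 ± 0.38, adjusted p = 0.102). Both counts fell to 0 without combination replicate 2, and the count against anti-PD-1 also without anti-PD-1 replicate 2. Without TP-16 replicate 2 the count against TP-16 was 1, and without either vehicle array the counts were 6 against TP-16 and 4 against anti-PD-1. The combination arrays lay above both TP-16 arrays for 8 genes and above both anti-PD-1 arrays for all 10, as for 23.0% and 23.1% of all genes. The departure from additivity is how far the combination lay from vehicle plus the separate differences of both agents on the log2 scale. By the probe used for each gene it was called for no gene of the 10 (0% of all genes after adjustment, 3.28% at the unadjusted p-value, again none of the 10), with a smallest adjusted p-value of 0.857 in limma. The dimmer Lag3 probe passed the unadjusted p-value (-1.59 ± 0.53, adjusted p = 0.606), but was not well above background on either vehicle array. Leaving out vehicle replicate 1 or 2 put 2 or 4 of the 10 genes past the unadjusted p-value. The 95% interval of the departure from additivity ran from -1.32 to 0.90 for Pdcd1lg2, and from -1.97 to 1.01 for Cd274.

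The 10 genes did not vary alike over the 8 arrays. Leaving Nt5e aside, the 36 pairs of the other 9 genes had Pearson correlations of 0.41 to 0.99 with a median of 0.86, highest for Pdcd1 and Lag3 and lowest for Ctla4 and Tigit. Nt5e had correlations of -0.50 to 0.13 with the others. These values describe 8 arrays of 4 groups, which share the group differences, the scaling and the low vehicle replicate 1.

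By the same measure over 18421 genes above background on all arrays, the genes closest to Pdcd1 were Ltb, which encodes lymphotoxin beta of lymphocytes (r = 0.995), Tmem229b (0.994) and Nupr1l (0.994). Closest to Cd274 were Gbp5, an interferon-induced GTPase (0.996), Serping1, the C1 inhibitor of complement (0.996), and Nod1, a sensor of bacterial cell wall (0.995). Closest to Havcr2 were Pira7 (0.995), Gm14548 (0.995) and Pira11 (0.994), paired receptors of myeloid cells in a family of near-identical copies whose probes may not tell them apart. Closest to Entpd1 were Slc11a1, a metal transporter of macrophage phagosomes (0.998), Panx1, a channel that releases ATP (0.998), and Sdc3 (0.997).

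Genes that work with the checkpoints were followed in 6 lists, and all counts are for the combination against vehicle in limma, beside the background and the median of all genes given above. Without combination replicate 2 no gene of the 6 lists was called. Without vehicle replicate 1 the genes called higher were 4 of the other inhibitory receptors, 3 of the other ligands, 2 of the adenosine pathway, 5 of interferon gamma signaling, 6 of the transcription factors and 4 of the phosphatases and adaptors. Without combination replicate 1 they were, in the same order, 4, 1, 5, 1, 4 and 5. Without any one TP-16 or anti-PD-1 array 3 other inhibitory receptors were called higher, and without either anti-PD-1 array 3 genes of interferon gamma signaling. Of 11 other inhibitory receptors tested, 6 rose and 1 fell, with a median log2 fold change of 1.36. Cd5, a brake on T-cell receptor signaling, rose by 3.19 ± 0.50 (adjusted p = 0.0114), from -2.74 and -1.64 in vehicle to 0.70 and 1.30. Btla, the receptor for HVEM, rose by 3.04 ± 0.44 (adjusted p = 0.0107) and Cd96, a receptor related to TIGIT, by 2.14 ± 0.53 (adjusted p = 0.0306). Vsir (VISTA), Cd200r1 and the B-cell receptor Cd72 rose by 1.36, 1.19 and 1.45, and Cd244 fell by 1.43 (adjusted p = 0.0467). The call of Cd244 was lost when any single vehicle, anti-PD-1 or combination array was left out. Btla was above background on 1 of the vehicle arrays.

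Of 12 other ligands tested, 1 rose and 1 fell, with a median of 0.10. Cd48, the ligand of CD244, rose by 1.49 ± 0.27 (adjusted p = 0.0144), and Hmgb1, a nuclear protein that also binds TIM-3 when released, fell by 1.24 (adjusted p = 0.0157). Tnfrsf14 (HVEM) differed by 1.17 ± 0.43 and passed the unadjusted p-value alone (adjusted p = 0.0853). In the fit of all 8 arrays the ligands of TIGIT and CTLA-4 were not called: Pvr (CD155) differed by -0.54, Nectin2 by -0.04, Cd80 by 0.50 and Cd86 by 0.80.

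Of 13 genes of the adenosine pathway tested, 5 rose and 2 fell, with a median of 0.83. Dpp4 (CD26), which holds adenosine deaminase at the cell surface, rose by 2.31 ± 0.33 (adjusted p = 0.0107), and Cd38, an ectoenzyme that uses NAD, by 2.19 ± 0.29 (adjusted p = 0.0102). The ATP channel Panx1 rose by 1.28 and the ectonucleotidase Entpd2 by 1.53. Of the 4 adenosine receptors, Adora3 rose by 1.08, while Adora2a (1.02, adjusted p = 0.0835) and Adora2b (0.45, adjusted p = 0.0936) were not called. Adora1 was called lower (adjusted p = 0.0266). It was not well above background on either combination array and above it on 1 vehicle array alone, so no bound on its fall is given. Adk, the kinase that removes adenosine inside cells, fell by 1.40 (adjusted p = 0.0102), and the adenosine transporter Slc29a1 passed the adjusted p-value at less than 2-fold (-0.64, adjusted p = 0.0161).

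Of 14 genes of interferon gamma signaling, 6 rose and none fell, with a median of 0.90. The largest of these rises were Ciita, the activator of MHC class II genes, at 4.84 ± 0.91 (adjusted p = 0.0157), and Ifng itself at 4.06 ± 0.96 (adjusted p = 0.0276). Ifng measured -3.58 and -0.49 in vehicle, 0.75 and 0.00 with TP-16, 1.09 and 0.70 with anti-PD-1, and 1.67 and 2.38 with the combination. The groups stood in the same order as for the PD-1 ligands. The chemokine Cxcl9 rose by 3.18, Irf1 by 1.62 and the feedback inhibitor Socs1 by 1.11, while Jak1 (0.65), Jak2 (0.59), Stat3 (0.91) and Irf2 (0.78) passed the adjusted p-value at less than 2-fold. The receptor chains Ifngr1 (0.47) and Ifngr2 (-0.33) passed neither limit. Without vehicle replicate 1 the rises of Ifng, Cxcl9 and Irf1 were 2.52, 1.58 and 1.02, each still called, and Socs1 measured 0.82 and was not. Over the 8 arrays, the mean of these 14 genes had a correlation of 0.989 with Lag3, 0.983 with Cd274 and 0.973 with Pdcd1, and of -0.430 with Nt5e. Cd274 had 0.969 with the mean of the T-cell markers described below.

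Of 16 transcription factors of activated or exhausted T cells, 8 rose and none fell, with a median of 1.27. Tox, a factor of exhausted T cells, rose by 3.70 ± 0.98 (adjusted p = 0.0364), from -6.37 and -3.13 in vehicle to -1.32 and -0.79 (by 2.07 without vehicle replicate 1), and was above background on 1 vehicle array. Tbx21 (T-bet) rose by 2.90 ± 0.71 (adjusted p = 0.0304), and without vehicle replicate 1 by 1.86 with the call lost (adjusted p = 0.0508). Irf4 was not well above background on either vehicle array and was at least 4.80-fold higher (adjusted p = 0.0169), and Tcf7 likewise at least 2.34-fold higher (adjusted p = 0.0102). Nfatc2 (2.17), Ikzf2 (1.59), Id2 (1.28) and Batf (1.27) also rose. Id3 (0.96), Nfatc1 (0.43) and Nr4a3 (-0.89) passed the adjusted p-value at less than 2-fold, and Nr4a1 (-0.05) and Nr4a2 (0.19) did not pass it.

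Of 16 phosphatases and adaptors that act under these receptors, 7 rose and none fell, with a median of 1.01. Ptpn6, which encodes the phosphatase SHP-1, rose by 1.20 ± 0.34 (adjusted p = 0.0450; 0.74 and not called without vehicle replicate 1), and Ptpn11, which encodes SHP-2, measured 0.16 ± 0.13 (adjusted p = 0.387). The adaptor Sh2d1a (SAP) rose by 2.19 ± 0.62 (adjusted p = 0.0431), the lipid phosphatase Inpp5d (SHIP-1) by 1.56 ± 0.26, the ubiquitin ligase Cblb by 1.47 ± 0.15, Ubash3b by 1.39, the diacylglycerol kinase Dgka by 1.36 and the kinase Fyn by 1.32, while the adaptor Grb2 passed the adjusted p-value at less than 2-fold (0.53). Ubash3a was not well above background on either vehicle array and passed the unadjusted p-value alone (at least 1.84-fold higher, adjusted p = 0.0761). No gene of the 6 lists passed the adjusted p-value in any other comparison.

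**Figure D3:**
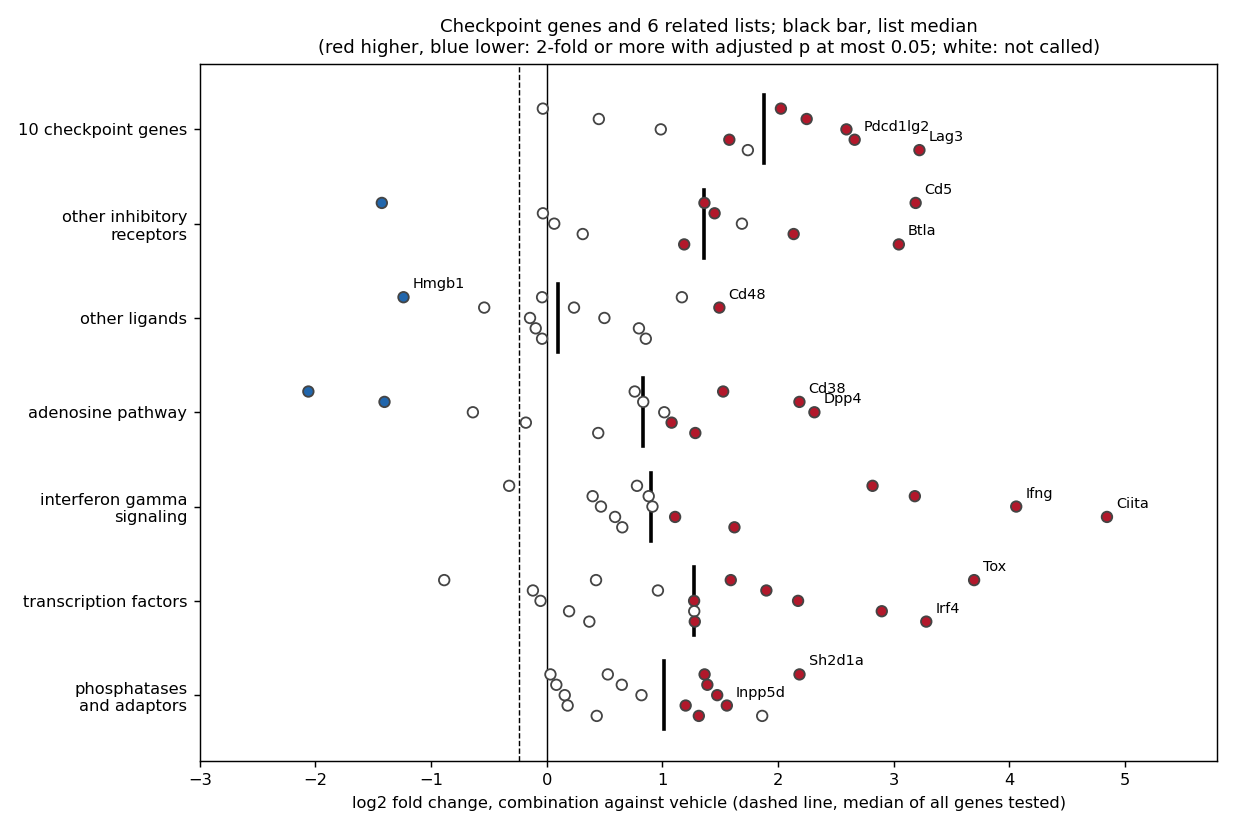
Points are log2 fold changes of the combination against vehicle for the 10 checkpoint genes and 6 related lists, 1 probe a gene, with list medians as black bars and the median of all genes, -0.24, as a dashed line; red genes were called higher and blue genes lower. All list medians lie to the right of the dashed line, and the list of other ligands has the lowest, at 0.10.

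The same arrays held more transcript of T-cell markers. Of 10 T-cell markers, 5 rose with the combination and none fell, where 5.57% of all genes were called higher, with a median of 2.80 against -0.24 over all genes. Their summed level (intensity relative to the 75th percentile, on the linear scale) ranged from 7.30 to 16.9 in vehicle, 21.2 to 25.9 with TP-16, 21.6 to 26.4 with anti-PD-1 and 31.9 to 55.1 with the combination. Cd8a, the defining marker of cytotoxic T cells, measured -5.02 and -1.43 in vehicle and 0.21 and 0.86 with the combination, a rise of 3.76 ± 1.1 (adjusted p = 0.0477), and was not well above background on vehicle replicate 1. Without that array the difference was 1.96, still called, as were 6 of the 10 T-cell markers, and without combination replicate 2 none of them was called. Without combination replicate 1 or either anti-PD-1 array 3 of the 10 were called. Cd4 differed by 0.41 ± 0.15 (adjusted p = 0.0881).

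The 5 T-cell receptors were therefore also expressed relative to the mean of the CD3 chain genes Cd3d, Cd3e, Cd3g and Cd247 on each array. On this scale the difference of the combination from vehicle was 0.46 for Pdcd1, 1.44 for Lag3, -0.046 for Ctla4, -0.21 for Havcr2 and -0.80 for Tigit, each ± 0.75, and none passed the adjusted p-value (0.0677 for Lag3, 0.305 to 0.955 for the others). This SE was the same for every gene, so it does not measure the spread of any single gene. This scaling subtracts the same CD3 difference from every gene, so a gene that rose by less than the CD3 chains takes the opposite sign by construction. The values of Pdcd1, Ctla4 and Havcr2 lay within this shared SE of 0. With the shared SE the 95% interval for Lag3 ran from -0.03 to 2.90, so a rise beyond that of the CD3 chains was neither shown nor excluded by this test. The spread of Lag3 itself around the CD3 chains was not tested. Of the 4 chain genes, Cd3e rose by 1.81 (adjusted p = 0.0273), Cd3d and Cd3g differed by 2.77 and 2.83 (adjusted p = 0.0550 and 0.0709), and Cd247 by -0.27. Cd247 thus lowers the CD3 mean that was subtracted and raises the difference of every gene on this scale, including those of Pdcd1 and Lag3. No reference without Cd247 is given here. Over the 8 arrays, the mean of the 10 T-cell markers had a correlation of 0.996 with Lag3, 0.988 with Pdcd1, 0.857 with Ctla4 and 0.640 with Tigit.

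Markers of other cells moved beside these genes too. In the combination against vehicle, beside 5.57% of all genes called higher and 8.61% lower, 5 of 7 macrophage markers rose with a median of 1.03, 6 of 7 dendritic cell markers with a median of 1.82, 4 of 6 regulatory T-cell markers with a median of 1.37, 1 of 5 NK cell markers with a median of 1.56, 3 of 7 fibroblast markers with a median of 0.69 and 1 of 6 endothelial markers with a median of 0.51. Without combination replicate 2 no marker of these 6 lists was called, and without combination replicate 1 no regulatory T-cell, NK cell or endothelial marker. Without vehicle replicate 1 the calls were 2 of the macrophage, 5 of the dendritic cell, 1 of the regulatory T-cell and 2 of the fibroblast markers and 0 of the NK cell and endothelial markers, and without vehicle replicate 2 all 5 NK cell markers were called. Without any one TP-16 or anti-PD-1 array, 3 macrophage, 2 regulatory T-cell and 0 endothelial markers were called. Cd5, Ikzf2 and Eomes stand both here and in the related lists. Foxp3, which defines regulatory T cells, differed by -0.21 (adjusted p = 0.570). The summed level of the macrophage markers ranged from 108 to 136 in vehicle and from 198 to 293 with the combination, and over the 8 arrays their mean had a correlation of 0.922 with Entpd1 and 0.807 with Havcr2, lower than the 0.943 and 0.915 of the T-cell markers. The mean of the dendritic cell markers had 0.931 with Entpd1, 0.777 with Havcr2, 0.963 with Pdcd1 and 0.923 with Lag3. Of 5 B-cell markers 3 fell, of 6 neutrophil markers 2 fell, and of 5 tested epithelial markers of the tumor line 2 fell, with Krt18 at -1.39 (adjusted p = 0.0196) and Vil1 not well above background on any array. Without combination replicate 2 none of these was called. Without vehicle replicate 2 the neutrophil count turned to 2 higher and 0 lower, and without combination replicate 1 it was 0. The summed level of the B-cell markers ranged from 0.82 to 1.42 in vehicle and from 1.4 to 1.82 with the combination, so it did not follow the 3 genes that fell. No marker of skeletal muscle or skin was called (0 of 5 and 0 of 3), but the summed level of the skin markers was 2.33 and 30.9 in the TP-16 arrays and 2.97 and 31.2 in the anti-PD-1 arrays, high in replicate 2 of each, against 3.53 to 5.05 in vehicle and 1.95 to 2.33 with the combination. The part of these cells in the checkpoint values was not tested.

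**Figure D4:**
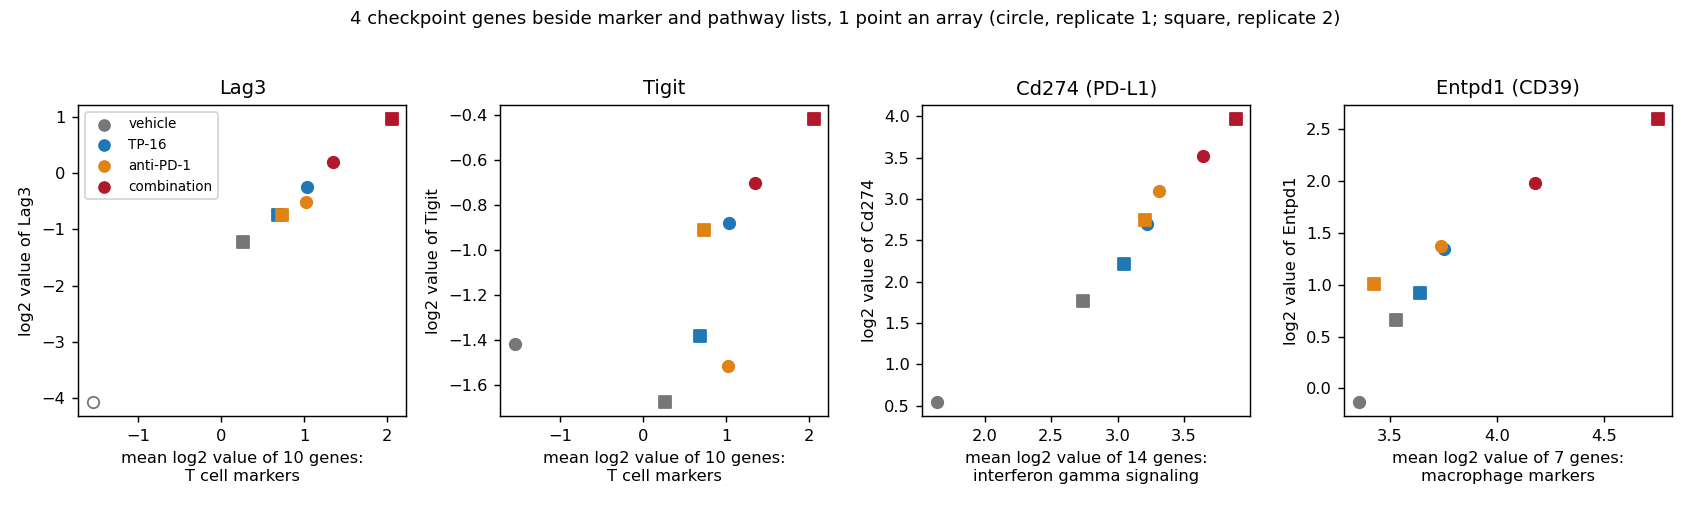
Each point is 1 array, coloured by group, with the log2 value of a checkpoint gene on the vertical axis and the mean log2 value of a fixed list (10 T-cell markers, 14 interferon gamma signaling genes or 7 macrophage markers) on the horizontal axis. Lag3 and Cd274 follow their lists over all arrays, while Tigit is lowest in vehicle replicate 2 and not in vehicle replicate 1, which has the lowest T-cell markers.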

How the data were processed

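RNA of CT26 tumors was measured on 8 arrays, 2 in each of 4 groups, with groups and replicate numbers from the sample labels. The authors deposited spot intensities, which Agilent Feature Extraction 10.7.1.1 had background-subtracted per the labels and file headers, and a table of log2 values. Columns of that table had medians of 5.17 and followed the log2 intensities of the same arrays (r 0.995 to 1.00). They were therefore read as log2 values centred across arrays, normalized in GeneSpring per the study's methods, with settings not given in the sources used here, and served as an alternative.

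Control spots and spots with an outlier mark were left out (959 spots, with which 38 probes were lost), spots of a probe were averaged, and the 75th percentile of log2 intensity was subtracted from each array. A probe was tested where, in 1 or more groups, both arrays had it well above background, which left 31912 probes. All arrays entered 1 limma 3.58.1 fit (R 4.3.3) with 1 mean per group. Calls needed a fold of 2 and a p-value of at most 0.05, adjusted by Benjamini-Hochberg or unadjusted. A fold against a group below background was computed from the lowest signal above background on each array. For 32971 probes the RefSeq table of GRCm38.p6 gave the gene name, for others the array annotation did, whose positions are in mm9. Exon and UTR placement of the probes was not analysed here. The fit was tested on simulated data. Figures were drawn in matplotlib with Python.

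All 10 genes are named. From each related list the text names the 3 with the largest absolute log2 fold change of the combination against vehicle past the unadjusted threshold and any with an adjusted p-value of at most 0.05, and, for 4 genes, the 3 with the highest correlation. Others are named as partners of the 10 genes or as cell markers, chosen after their values were seen. 1 gene of the lists is not reported here. The genes and the lists were chosen with earlier results of these data known. As alternatives, arrays were quantile normalized, corrected by normexp (offset 50), centred on CD3 chain genes or replaced by the authors' log2 values. Dim probes were kept, or dropped unless above background on all 8 arrays. The fit took a replicate block, the compared groups alone, or a trended and robust spread, or gave way to the methods' t-test. The fold limit was 1.5, a gene's probes were averaged, or each array was left out in turn, which for the counts of the related and marker lists was added after the data were seen.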

Additional observations from a re-analysis of the deposited data

How the results depend on the processing

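Of the 6 rises with the combination, those of Cd274, Pdcd1lg2 and Entpd1 kept their call under all alternatives run for them but CD3 chain centring (adjusted p = 0.260 to 0.762), the fit of only the compared groups, the methods' t-test and leaving out combination replicate 2. Each of the last 3 left 0 genes called. No filter on dim probes left 3 calls. With only those groups the 6 adjusted p-values were 0.0635 to 0.132, and by the t-test 0.174 to 0.324. Havcr2 lost its call with the authors' log2 values too (adjusted p = 0.0587), and Tigit gained one (adjusted p = 0.0432). Quantile normalization moved the median of all genes from -0.24 to -0.05 and that of the 10 genes from 1.88 to 2.00.

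At the unadjusted p-value the t-test left 1 gene in each comparison with vehicle, 1 for the combination against TP-16 and 0 against anti-PD-1. With normexp, 4 genes passed for anti-PD-1 against vehicle and 4 for the combination against anti-PD-1, where 2 were also called after adjustment, and the fit of compared groups gave 1 for TP-16 against vehicle and 4 for the combination against anti-PD-1. Normexp reversed Ctla4 with TP-16 (-0.27) and Nt5e with the combination (0.011). Centring on CD3 chain genes, planned for the 5 T-cell receptors, turned Ctla4 (-0.046), Havcr2 (-0.21) and Tigit (-0.80) with an SE of 0.75 shared by all genes. Of the other genes it turned Lgals9 (-1.33, adjusted p = 0.0885) and put Nt5e at -1.82 (adjusted p = 0.0245).

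With each array left out in turn, calls after adjustment ranged from 0 to 7 for the combination, 0 to 1 for TP-16 and 0 to 2 for anti-PD-1 against vehicle. Unadjusted counts ranged from 1 to 7 for TP-16 and 2 to 7 for anti-PD-1 against vehicle, 0 to 6 and 0 to 4 for the combination against TP-16 and anti-PD-1, and 0 to 4 for additivity. Log2 fold changes that reversed ranged, with TP-16, from -1.13 to 1.77 for Ctla4, -0.37 to 1.04 for Havcr2 and -0.32 to 0.061 for Nt5e, with anti-PD-1 from -0.27 to 2.64 for Ctla4, and with the combination from -0.22 to 0.16 for Nt5e (0.09 without combination replicate 1). The lone array of such a group was assumed to vary like the others, and without vehicle replicate 2 the values of Ctla4 and Lag3 are against an array below background.

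The replicate numbers did not pair the arrays: deviations of same-numbered arrays from their group means had correlations of -0.19 to 0.29 over 31912 probes. With the replicate block, 5 genes were called for the combination against vehicle (Havcr2, adjusted p = 0.0506) and counts in the other comparisons did not move. No slide block was run because there was 1 slide, and the fit of compared groups and the t-test do not apply to additivity.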
